A study of Mus musculus with 3 samples.

Results

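The genes described here are those of the proteasome, the protease complex that degrades ubiquitinated proteins, in CD4+ T cells before and after activation and with or without the intraflagellar transport gene *Ift20*. They were chosen by name, as the gene symbols that begin with Psma to Psmg followed by a digit. The symbol rule found 50 of the 31053 genes of the deposited tables, and 49 of these had at least 10 UMIs (unique molecular identifiers, which count captured RNA molecules) over the 3 libraries, out of 13898 such genes in all. By role they were 7 genes of the 20S alpha ring, 4 non-catalytic and 3 constitutive catalytic beta genes, the 3 immunoproteasome genes, 6 ATPases and 11 other subunits of the 19S particle, 3 assembly chaperones of the 19S particle and 4 of the 20S core, 5 genes of activators including 1 gene copy, 1 inhibitor, 1 testis subunit, and 1 gene that carries a proteasome symbol without being one. The gene with the fewest UMIs among the 49 was *Psma8*, with 23, and the gene left out was *Psmb11*, the catalytic subunit of the thymoproteasome of the thymic cortex, with 0 UMIs in each library.

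The 20S proteasome is a barrel of stacked rings whose beta subunits hold the protease sites, and the 19S particle that caps it recognizes ubiquitin chains, unfolds the protein with its ATPase ring and feeds it in. In cells of the immune system and in cells exposed to interferon-gamma, the catalytic subunits encoded by *Psmb5*, *Psmb6* and *Psmb7* are replaced in newly built particles by those encoded by *Psmb8*, *Psmb9* and *Psmb10*, which gives the immunoproteasome. Interferon-gamma also induces PA28, a ring of the *Psme1* and *Psme2* products that opens the 20S core without ATP, and the products of the immunoproteasome favor peptides suited to MHC class I.

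CD4+ T cells enriched for naïve cells were obtained from spleens of C57BL/6 mice, which per the study's methods were males 5 to 10 weeks old. All mice carried floxed *Ift20* alleles. The WT cells came from *Ift20* f/f mice without *Cre*, and the IFT20-KO cells from *Ift20* f/f CD4 cre mice, in which *Cre* is driven by *Cd4* regulatory sequences and so acts in T cells. The unstimulated WT library (time 0 h) received DPBS, and the stimulated WT and stimulated IFT20-KO libraries were kept for 24 h with antibodies to CD3 and to CD28, each at 1 μg/mL, after which 7-AAD-negative CD3+CD4+ cells were sorted. Among those analysed here there was no unstimulated IFT20-KO library and no unstimulated library kept for 24 h. Each stimulation ratio below thus compares 24 h with antibodies and 0 h. Effects of the antibodies and of the time in culture cannot be told apart in it. The labels do not say how many mice each library held.

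Each group was 1 library, so there are no replicates and nothing was tested. Every interval is a 95% counting interval of the summed UMIs. It leaves out the spread between cells, so it is too narrow for whole libraries as well as for small sets of cells. It says nothing of the spread between mice. A difference outside it is a difference between 2 libraries or, within a library, between 2 sets of cells. After the cell filter, 8031, 9903 and 13920 cells remained in these libraries in the order given, with 37133949, 116979076 and 106435143 UMIs and medians of 4627, 12167 and 5014.5 UMIs per cell. The IFT20-KO library stood apart in that 39.6% of its cells had under 3000 UMIs, against 21.7% in stimulated WT and 16.6% in unstimulated WT, and in that none of its cells had under 1400 UMIs, against 421 and 801. Between 114 and 197 cell barcodes were shared by each pair of libraries, at most 1.99% of a library. *Ift20* itself was at 64.4, 75.95 and 6.60 CPM, so the KO library matched its label. All 4 CD4 T cell markers were present, with *Cd3e* at 1022, 905 and 938 CPM and *Cd4* less even, at 219, 120.1 and 184 CPM. The plasmacytoid dendritic gene *Siglech* and the erythroid gene *Hbb-bs* were at 0 UMIs in each library, and the summed levels of the B cell, dendritic, natural killer and erythroid lists did not exceed 3.31 CPM.

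Each level is a share of the library's UMIs, in parts per 1000000 (CPM), and levels stand in the order unstimulated WT, stimulated WT and then stimulated IFT20-KO. A log2 ratio was taken between stimulated WT and unstimulated WT, and between IFT20-KO and WT, both stimulated, and the comparisons thus share the stimulated WT library. CPM compare the same gene between libraries, and tags counted at 1 end of a transcript do not allow levels of different genes to be ranked. In such sums, fewer cells with a transcript and less of it per cell cannot be told apart. The median of all genes was -0.089 for stimulation and 0.14 for IFT20-KO on the log2 scale. All genes here means those with at least 10 UMIs in a comparison, not matched to the members in level. Counted as UMIs per cell without scaling, each log2 ratio would be higher by 1.35 for stimulation and changed by -0.63 for IFT20-KO, since stimulated WT cells held the most UMIs, a mean of 11812.5 against 4624 in unstimulated WT and 7646 in IFT20-KO.

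Summed over each library, stimulated WT cells devoted a larger share of their UMIs to proteasome genes than unstimulated WT cells, and the 3 immunoproteasome genes went the other way. The summed level of all members was 6410.1 CPM in unstimulated WT, 11470.1 CPM in stimulated WT and 10217 CPM in stimulated IFT20-KO. Of the 48 members with UMIs in both WT libraries, 45 had a log2 ratio above 0, where 47% of all genes did, and 40 were at least 1.5-fold higher, where 28.6% of all 13297 genes were. Only *Psmb10* was at least 1.5-fold lower, where 34.3% of all genes were. The median log2 ratio of the 48 members was 1.08, that is 1.17 above the all-gene value. Counted as UMIs per cell, where the typical gene was itself 1.26 higher on the log2 scale in stimulated cells, all 48 members including the immunoproteasome genes were higher. The testis subunit *Psma8* had 0, 11 and 12 UMIs and was left out of this comparison.

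**Figure D1:**
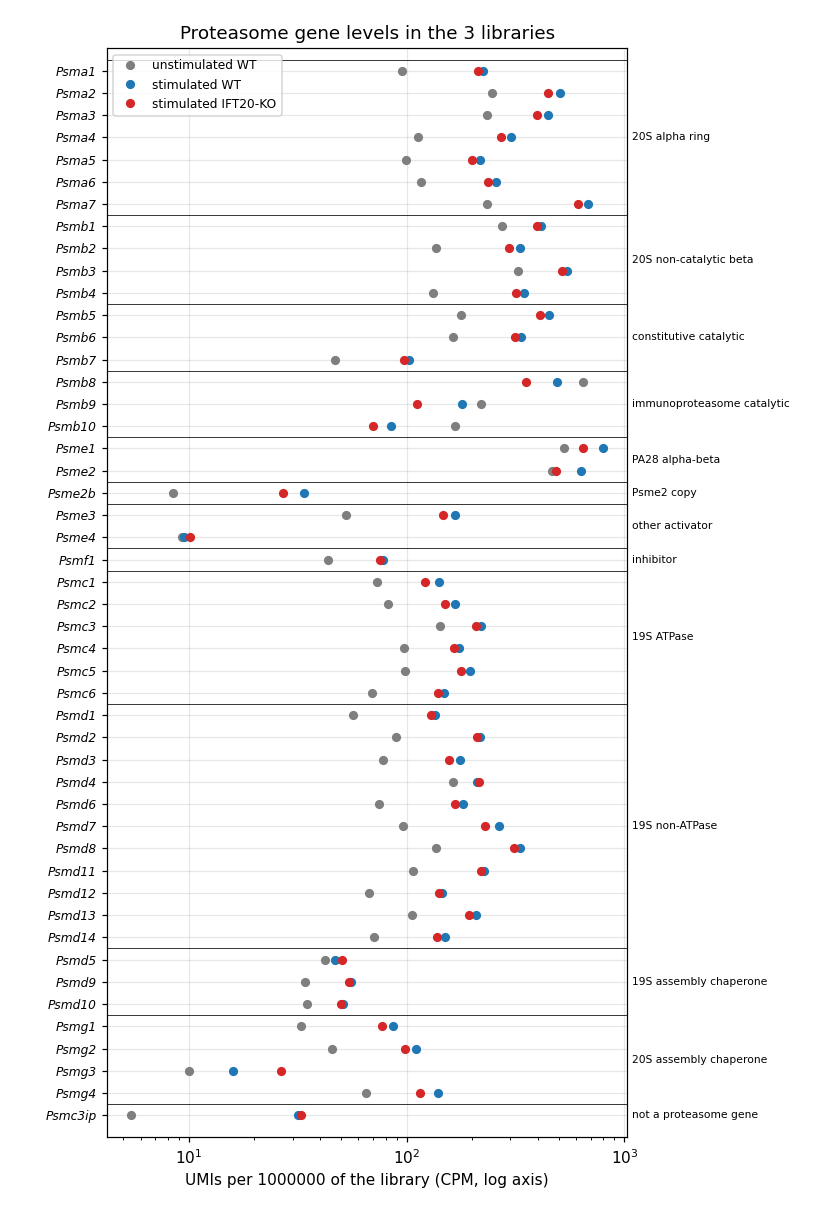
Level of each of 48 proteasome genes in the 3 libraries, in UMIs per 1000000 of the library on a log axis, with genes grouped by role and 1 point per library. The stimulated WT points lie to the right of the unstimulated WT points for 45 genes and to the left for *Psmb8*, *Psmb9* and *Psmb10*, which in UMIs per cell were higher in stimulated cells.

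The alpha ring, which forms the gate of the 20S barrel, was higher throughout in stimulated WT cells. Its 7 genes summed to 1138 CPM in unstimulated WT, 2631 CPM in stimulated WT and 2372 CPM in IFT20-KO cells. *Psma7* had the largest ratio of the ring, with 234, 684 and 611 CPM and a stimulation ratio of 1.55 (1.52 to 1.58). *Psma3* had the smallest, with 233, 444 and 396 CPM and a stimulation ratio of 0.93 (0.90 to 0.96). All 7 alpha genes thus lay between these values, each at least 1.5-fold higher, where 28.6% of all genes were.

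The non-catalytic beta subunits *Psmb1*, *Psmb2*, *Psmb3* and *Psmb4* complete the inner rings beside the catalytic ones. *Psmb4* was at 132, 345 and 317 CPM, which put its log2 ratio for stimulation at 1.39 (1.35 to 1.43). *Psmb1* was at 273, 415 and 398 CPM, the smallest ratio of the group at 0.60 (0.57 to 0.63). Each of the 4 was at least 1.5-fold higher after stimulation, where 28.6% of all genes were, and the lowest of them just passed that size.

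The 3 constitutive catalytic genes were higher in stimulated WT cells by about the same factor as the rest of the core. *Psmb5*, which encodes the subunit with chymotrypsin-like activity, was at 178 CPM (174 to 183), 453 CPM (449 to 457) and 411 CPM (407 to 415), so that the log2 ratio with stimulation came to 1.34 (1.31 to 1.38). *Psmb6*, the caspase-like subunit, was at 163 CPM (159 to 168), 335 CPM (331 to 338) and 314 CPM (310.2 to 317), with a ratio of 1.03 (0.99 to 1.07). *Psmb7*, the trypsin-like subunit, was at 46.9 CPM (44.7 to 49.1), 102 CPM (101 to 104) and 97.7 CPM (95.9 to 99.6), with a ratio of 1.13 (1.05 to 1.2). In each case both stimulated libraries lay above the unstimulated one and close to each other. The genome holds processed copies of *Psmb5*, *Psmb6* and *Psmb7*, so reads that fit a copy as well may have been left uncounted. *Psmb7* also shares exon bases with the protein-coding gene *Nek6* on the other strand.

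Summed over each library, their immunoproteasome counterparts were lower in stimulated WT cells as a share of all UMIs and lower again in IFT20-KO cells. *Psmb8*, which replaces *Psmb5*, was at 644 CPM (635 to 652), 491 CPM (487 to 495) and 353 CPM (349.6 to 357), which put its log2 ratio for stimulation at -0.39 (-0.41 to -0.37). *Psmb9*, which replaces *Psmb6*, was at 219 CPM (214 to 223), 179 CPM (177 to 182) and 111 CPM (109 to 113), a ratio of -0.29 (-0.32 to -0.25). *Psmb10*, which replaces *Psmb7*, was at 168 CPM (164 to 172), 85.1 CPM (83.5 to 86.8) and 70.3 CPM (68.7 to 71.9), a ratio of -0.98 (-1.02 to -0.93). The order unstimulated WT, stimulated WT, IFT20-KO from high to low held for all 3 in CPM, but in UMIs per cell the stimulated WT library was the highest. The counts per 100 cells were 298, 579.6 and 270.0 UMIs for *Psmb8*, 101, 212 and 85.0 UMIs for *Psmb9*, and 77.5, 101 and 53.7 UMIs for *Psmb10*. At like depth, *Psmb8* and *Psmb9* were not lower throughout. With 4000 to 8000 UMIs per cell (4978 unstimulated and 546 stimulated WT cells), *Psmb8* was at 646 CPM in unstimulated and 852 CPM in stimulated WT. *Psmb9* was at 216 and 313 CPM. With 8000 to 12000 UMIs (334 and 1976 cells) these were 661 and 678, and 235 and 232 CPM, with overlapping intervals for both genes. With 12000 to 16000 UMIs (48 and 2490 cells) they were 677 and 487, and 212 and 174 CPM, with overlapping intervals for *Psmb9*. *Psmb10* was lower at each depth, at 171 and 161, 158 and 110, and 186 and 77.5 CPM, with overlapping intervals at the first. *Psmb8* and *Psmb9* are neighbors in the MHC region (GRCm38 chr17:34197721-34201454 on the plus strand and chr17:34181987-34187764 on the minus strand), and both share exon bases with a gene on the other strand, *Psmb8* with the antisense RNA *Gm20496* and *Psmb9* with *Tap1*.

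The promoters of the catalytic genes are shown because those at hand differ in which known motif letters they hold. RefSeq promoter windows of 300 bases on GRCm38.p6, from 250 before to 50 after the annotated start, were at hand for 41 of the 49 members, and *Psmb7* was not among them. They were searched on both strands for the core of the antioxidant response element (TGACNNNGC), the letters read by *Nfe2l1* and *Nfe2l2* with their small Maf partners, for the IRF pattern of GAAA and GAAA 2 bases apart, for the STAT pattern TTCNNNGAA and for the E-box CACGTG. The 250 bases before the start of *Psmb6* (chr11:70525107-70525356, plus strand) and *Psmb5* (chr14:54617996-54618245, minus strand) each held 1 response element core, in capitals.
Psmb6: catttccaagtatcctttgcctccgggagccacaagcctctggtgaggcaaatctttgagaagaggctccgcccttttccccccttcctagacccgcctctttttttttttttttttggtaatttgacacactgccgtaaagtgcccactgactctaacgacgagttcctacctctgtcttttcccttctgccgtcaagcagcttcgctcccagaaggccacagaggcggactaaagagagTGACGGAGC
Psmb5: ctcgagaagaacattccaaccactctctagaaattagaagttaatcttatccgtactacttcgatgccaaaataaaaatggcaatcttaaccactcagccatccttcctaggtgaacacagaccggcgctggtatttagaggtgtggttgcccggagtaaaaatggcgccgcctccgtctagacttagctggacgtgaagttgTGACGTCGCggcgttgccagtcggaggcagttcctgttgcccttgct
The same core was in the windows of 6 of the 41 member genes and in 12.4% of all 32851 promoters. This count does not set the members apart. The window of *Psmb8* held the STAT pattern instead, shown in capitals within 30 bases (chr17:34198088-34198117, plus strand). The window of *Psmb9* held none of the patterns searched. That of *Psmb10* held an E-box, without the response element core or the IRF or STAT pattern.
Psmb8: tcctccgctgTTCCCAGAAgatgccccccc
The STAT pattern was in the windows of 3 of the 41 member genes and in 8.30% of all promoters, which does not set the members apart either. The IRF pattern was in those of 5 member genes (*Psmb3*, *Psmd4*, *Psmd9*, *Psme1* and *Psmg4*) and in 3.44% of all promoters. The E-box was in those of 4 (*Psma4*, *Psmb10*, *Psmd9* and *Psme3*) and in 7.15%. The IRF letters of *Psmb3* (chr11:97703261-97703290, plus strand) and *Psme1* (chr14:55578493-55578522, plus strand, reaching past the start) are shown as the strand of the gene reads them.
Psmb3: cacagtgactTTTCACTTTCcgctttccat
Psme1: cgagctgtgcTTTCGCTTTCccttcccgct
*Psmb3* had a stimulation ratio of 0.74 and an IFT20-KO ratio of -0.084, and *Psme1* of 0.60 and -0.32. The other members with the IRF letters were *Psmd4* (0.37 and 0.024), *Psmd9* (0.70 and -0.017) and *Psmg4* (1.09 and -0.26). A link between the letters and these ratios was not tested. The RefSeq start of *Psmb8*, *Psmb9* and *Psme1* lies 371 to 474 bases inside the outermost start that GENCODE M21 gives. The windows of these genes given here thus lie within the annotated genes. For *Psmb8* and *Psmb9* the bases before the outermost start were not searched. A match, or the lack of one, speaks only of the letters in this window.

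The product of each immunoproteasome gene replaces that of 1 constitutive gene. The share of the immunoproteasome gene among the UMIs of its pair was therefore compared between libraries. This comparison does not depend on how the libraries are scaled. A share of UMIs is not the subunit make-up of proteasomes, and its size depends on how well each gene of the pair was counted. For *Psmb8* with *Psmb5* the share was 78.3% (77.8 to 78.8) in unstimulated WT, 52.0% (51.7 to 52.3) in stimulated WT and 46.2% (45.9 to 46.6) in stimulated IFT20-KO. For *Psmb9* with *Psmb6* it was 57.2% (56.4 to 58.0), 34.9% (34.5 to 35.3) and 26.2% (25.8 to 26.6). For *Psmb10* with *Psmb7* it was 78.1% (77.2 to 79.1), 45.4% (44.7 to 46.1) and 41.8% (41.1 to 42.6). All 3 pairs gave the same order of libraries, and no counting intervals overlapped within a pair. Over the 3 pairs together, the immunoproteasome genes held 72.6% (72.2 to 73.0) of the UMIs in unstimulated WT, 45.9% (45.7 to 46.1) in stimulated WT and 39.4% (39.1 to 39.7) in stimulated IFT20-KO.

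**Figure D2:**
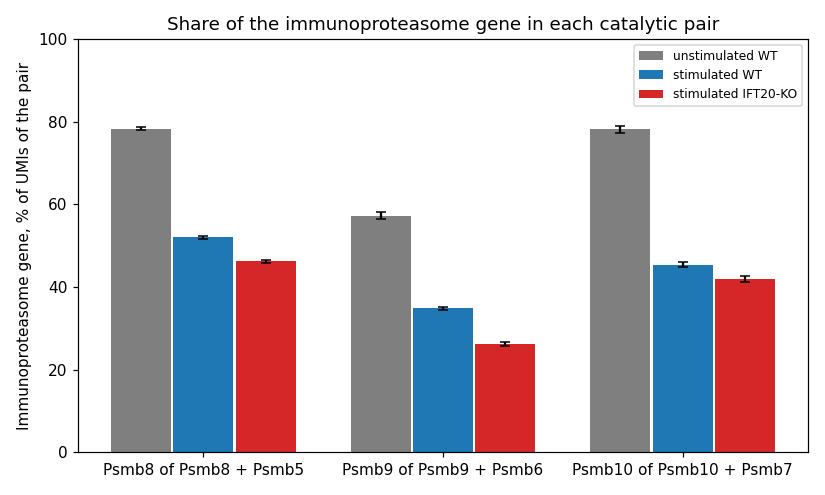
Share of the immunoproteasome gene in the UMIs of each catalytic pair, as a percentage, with 1 bar per library and 95% exact binomial intervals for counting error only. In each pair the bar is highest for unstimulated WT, lower for stimulated WT and lowest for stimulated IFT20-KO.

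On the log2 scale, the stimulation ratio of the immunoproteasome gene minus that of its constitutive counterpart was -1.74 (-1.78 to -1.69) for *Psmb8* with *Psmb5*, -1.32 (-1.37 to -1.27) for *Psmb9* with *Psmb6* and -2.11 (-2.19 to -2.02) for *Psmb10* with *Psmb7*, a mean of -1.72 (-1.76 to -1.68). Between IFT20-KO and WT the same differences were -0.33 (-0.36 to -0.31), -0.60 (-0.63 to -0.56) and -0.21 (-0.27 to -0.15), a mean of -0.38 (-0.40 to -0.35). *Psmb10* with *Psmb7* thus gave the largest difference upon stimulation and the smallest between the genotypes, and *Psmb9* with *Psmb6* the reverse.

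**Figure D3:**
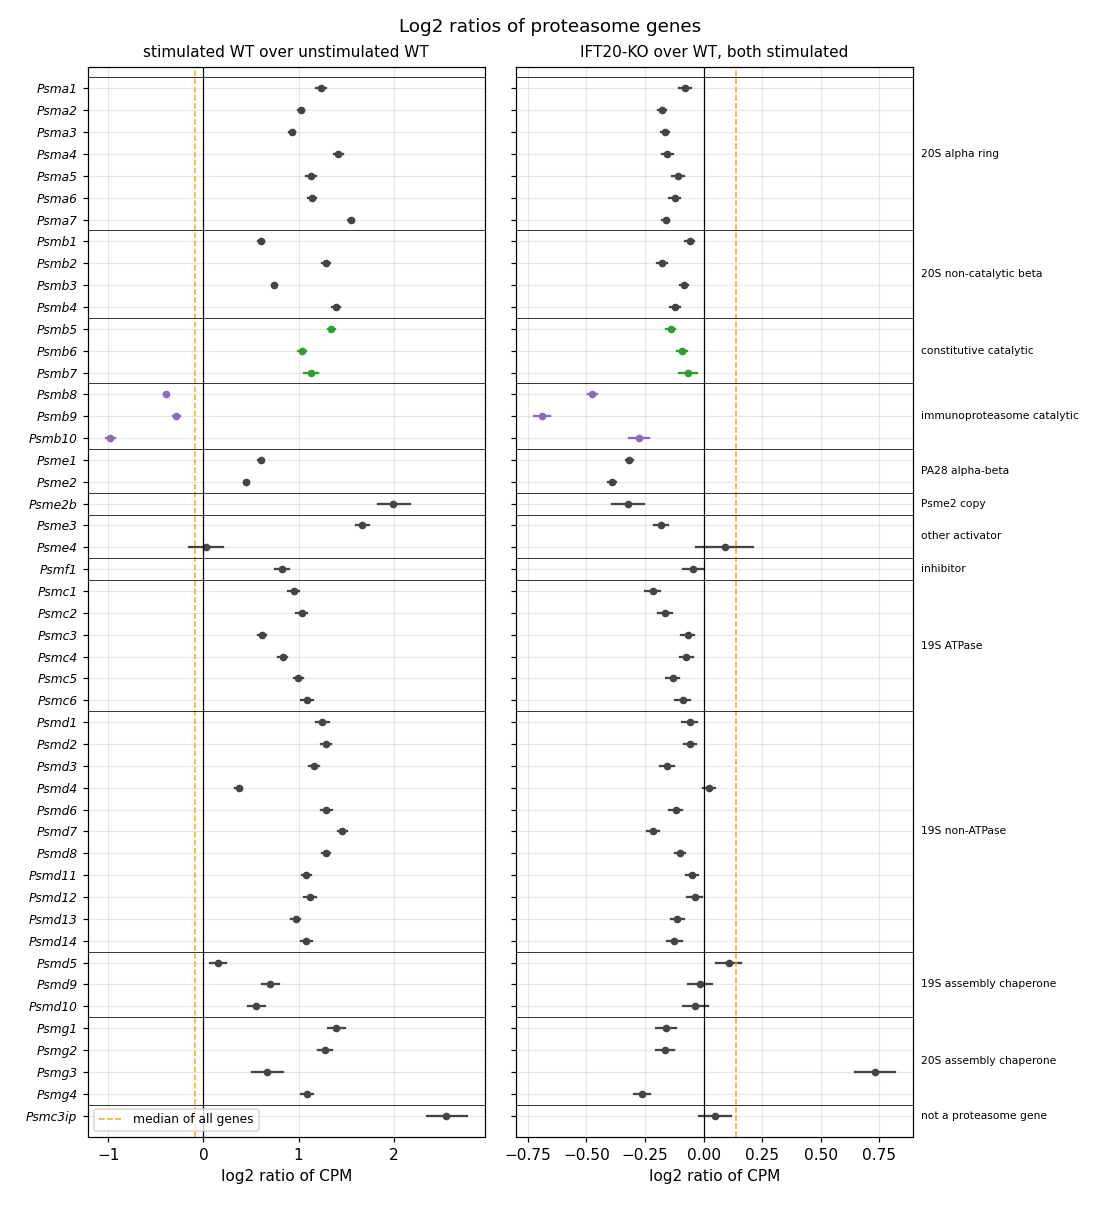
Log2 ratio of each of 48 proteasome genes, stimulated WT over unstimulated WT on the left and IFT20-KO over WT on the right, with 95% counting intervals, the median of all genes as a dashed line, constitutive catalytic genes in green and immunoproteasome genes in purple. With stimulation the immunoproteasome genes lie below 0 (above 0 in UMIs per cell) and the others above it, and between the genotypes *Psmb8* and *Psmb9* lie lowest and *Psmg3* highest.

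The PA28 genes, which interferon-gamma induces together with the immunoproteasome genes, were higher upon stimulation in CPM, unlike *Psmb8*, *Psmb9* and *Psmb10*. *Psme1* was at 529, 801 and 643 CPM, with ratios of 0.60 (0.58 to 0.62) for stimulation and -0.32 (-0.33 to -0.30) for IFT20-KO. *Psme2* was at 464, 635 and 484 CPM, with ratios of 0.45 (0.43 to 0.47) and -0.39 (-0.41 to -0.37). Both were highest in stimulated WT, and both were at least 1.2-fold lower in IFT20-KO than in WT. In IFT20-KO, *Psme2* was near its unstimulated level in CPM, but per 100 cells it had 370 UMIs there against 215 in unstimulated WT. *Psme2b*, an intronless near copy of *Psme2* whose reads may belong to *Psme2*, was at 8.48, 33.8 and 27.0 CPM.

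The other activators differed from PA28 and from each other. *Psme3*, the nuclear activator PA28-gamma, was at 52.5, 167 and 147 CPM, with ratios of 1.67 (1.60 to 1.74) for stimulation and -0.18 (-0.21 to -0.15) for IFT20-KO. *Psme4*, which encodes PA200, a nuclear activator linked to DNA repair and histone degradation, was at 9.32, 9.48 and 10.1 CPM, with intervals that included 0 in both comparisons. *Psmf1*, the inhibitor PI31, was at 43.8, 77.6 and 75.3 CPM, with ratios of 0.83 (0.75 to 0.90) and -0.044 (-0.087 to -0.00043). *Psme3* thus had a higher stimulation ratio than any 20S or 19S subunit gene, and no difference was detectable for *Psme4* at its counts of 346 to 1109 UMIs.

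The ATPase ring of the 19S particle, *Psmc1* to *Psmc6*, was higher after stimulation by a median log2 ratio of 0.97. *Psmc6*, the highest, was at 69.5, 148 and 139 CPM, a ratio of 1.09 (1.03 to 1.15). *Psmc3*, the lowest, was at 143, 219.6 and 209 CPM, a ratio of 0.62 (0.58 to 0.66). Of the 11 other 19S subunits found by the symbol rule, which include ubiquitin receptors and the deubiquitinase *Psmd14*, 10 were at least 1.5-fold higher. Of all genes, 28.6% were. *Psmd7*, the partner of *Psmd14*, was at 96.5, 265 and 228 CPM with the highest ratio, 1.46 (1.41 to 1.51). *Psmd4*, a ubiquitin receptor, was at 164, 211 and 215 CPM with the lowest, 0.37 (0.33 to 0.41). Among the 31 subunits of the core and the 19S particle that the symbol rule found outside the immunoproteasome, *Psmd4* alone did not reach 1.5-fold in CPM. Their summed level went from 4003 CPM to 8454 CPM with stimulation and was 7789 CPM in IFT20-KO. The 19S genes *Adrm1* (-0.03) and *Sem1* (0.31), which the rule leaves out by name and which are listed below as partners, stayed under that size too. Scaled without ribosomal and mitochondrial genes, *Psmb1* (0.50) and *Psmc3* (0.52) did not reach it either, nor with per-cell fractions (0.56 and 0.53).

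The chaperones that assemble the 20S core and the 19S particle differed in size of change. *Psmg1* and *Psmg2*, which form a dimer that holds the alpha ring, were at 32.9, 86.5 and 77.4 CPM and at 45.6, 110.2 and 98.3 CPM, with stimulation ratios of 1.40 (1.31 to 1.48) and 1.27 (1.199 to 1.35). *Psmg4*, which works with *Psmg3* at the alpha ring, was at 65.2, 139 and 116 CPM, a ratio of 1.09 (1.03 to 1.15). *Psmg3* was at 10.0, 16.0 and 26.5 CPM, a ratio of 0.67 (0.51 to 0.83). The 19S chaperones showed smaller ratios, and *Psmd9* of the 3 reached 1.5-fold, where 28.6% of all genes did. *Psmd9* was at 34.0, 55.3 and 54.6 CPM with a ratio of 0.70 (0.61 to 0.79), *Psmd10* (gankyrin) at 34.9, 51.2 and 50.01 CPM with a ratio of 0.55 (0.47 to 0.64), and *Psmd5* at 42.4, 47.0 and 50.6 CPM with a ratio of 0.15 (0.069 to 0.23). *Psmc3ip*, which fits the symbol rule but encodes a factor of homologous recombination rather than a proteasome protein, was at 5.41, 31.8 and 32.8 CPM and had the highest stimulation ratio of the members, 2.55 (2.35 to 2.76). It shares exon bases with the protein-coding gene *Mlx* on the other strand.

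Between IFT20-KO and WT, both stimulated, most members were slightly lower in the KO library, and the genes of the immunoproteasome and PA28 were lower by more. The median log2 ratio of the 49 members was -0.12 against 0.14 for all genes, 43 of the 49 were below 0 where 31.7% of all 13504 genes were, and 2 (*Psmg3* and *Psma8*) lay above the median of all genes. Members at least 1.2-fold lower numbered 7, where 7.75% of all genes were, namely *Psmb8*, *Psmb9*, *Psmb10*, *Psme1*, *Psme2*, *Psme2b* and *Psmg4*. Only *Psmg3* was at least 1.2-fold higher, where 35.9% of all genes were. None of the 31 standard 20S and 19S subunits passed that size in either direction, with ratios from -0.22 for *Psmc1* to 0.024 for *Psmd4*, the latter -0.15 with median-ratio scaling. Counted as UMIs per cell, where the median of all genes was itself -0.49, 48 of the 49 members lay below 0. Within the role groups the lowest and highest ratios were those of *Psma2* (-0.18) and *Psma1* (-0.081) in the alpha ring, *Psmb2* (-0.18) and *Psmb1* (-0.06) among the non-catalytic beta genes, *Psmc1* and *Psmc3* (-0.069) among the ATPases, and *Psmd7* (-0.22) and *Psmd4* among the other 19S genes.

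The ratios of the immunoproteasome genes were -0.69 (-0.72 to -0.66) for *Psmb9*, -0.47 (-0.49 to -0.46) for *Psmb8* and -0.28 (-0.32 to -0.23) for *Psmb10*, and those of their counterparts were -0.094 (-0.11 to -0.073) for *Psmb6*, -0.14 (-0.16 to -0.12) for *Psmb5* and -0.068 (-0.11 to -0.029) for *Psmb7*. *Psmg4* had a ratio of -0.26 (-0.30 to -0.23) and its partner *Psmg3* of 0.73 (0.65 to 0.82). *Psmg3* shares 9.68% of its exon bases with the gene model *Gm26938* on the same strand, so its counts are less certain than those of the other chaperones.

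Because the IFT20-KO library held many more cells of few UMIs, the genotypes were also compared among cells of like depth, in bands chosen after the values had been seen. The median of the members then lay closer to 0, and *Psmb8* and *Psmb9* lay further below it in each band, whereas *Psmb10* did so in the 2 shallower bands but not in the deepest. In cells with 4000 to 8000 UMIs (546 WT and 1119 IFT20-KO cells), the median ratio of the members was -0.035 and 19 of 48 were above 0. In cells with 8000 to 12000 UMIs (1976 and 2741 cells) it was -0.022 with 18 of 48 above 0, and in cells with 12000 to 16000 UMIs (2490 and 2064 cells) it was -0.051 with 10 of 49 above 0. Over the same bands the median of all genes was 0.12, 0.051 and 0.051. The 31 standard subunits summed to 7185, 8074 and 8615 CPM in WT and to 6952, 7942 and 8310.2 CPM in IFT20-KO. The ratio of *Psmg3* was above 0 in each band, at 0.92, 0.85 and 0.78.

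The mean difference between immunoproteasome and constitutive genes over the 3 pairs was larger in each band than over all cells, at -0.92, -0.79 and -0.47. *Psmb9* gave -0.99, -0.997 and -0.77, *Psmb8* gave -0.81, -0.74 and -0.51, and *Psmb10* gave -0.75, -0.54 and -0.15 in the bands from shallow to deep. *Psme1* gave -0.53, -0.41 and -0.32, and *Psme2* gave -0.62, -0.52 and -0.36. These 5 genes were lower in IFT20-KO in every band. Bands of equal UMIs took unlike parts of the stimulated libraries. The deepest band began near the median of stimulated WT, 12167 UMIs. In IFT20-KO it began near the lowest count, 11918 UMIs, of the deepest of 4 equal groups of cells. The immunoproteasome share was lower in deeper stimulated cells, as given below. How much of the larger differences this made up was not tested.

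Over the 3 pairs, the immunoproteasome share among cells with 4000 to 8000 UMIs was 72.5% (72.1 to 73.0) in unstimulated WT, 64.9% (63.7 to 66.0) in stimulated WT and 50.6% (49.7 to 51.6) in stimulated IFT20-KO. Among cells with 8000 to 12000 UMIs it was 72.5% (71.2 to 73.8), 55.4% (54.9 to 55.9) and 41.6% (41.2 to 42.1). Among cells with 12000 to 16000 UMIs it was 71.8% (68.9 to 74.7), 45.0% (44.6 to 45.4) and 36.7% (36.2 to 37.2), where only 48 unstimulated cells were left. The order of the libraries was the same in each band. Over these bands the share stayed level with depth in unstimulated cells but was lower in deeper stimulated cells of both genotypes.

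The same was seen when the cells of each library were ordered by UMIs and split into 4 equal groups. In unstimulated WT the share was 73.1%, 73.2%, 72.2% and 72.4% from the shallowest to the deepest group. In stimulated WT it was 57.9%, 56.1%, 44.9% and 40.2%. In stimulated IFT20-KO it was 46.3%, 46.1%, 43.5% and 35.4%. Taken by rank, IFT20-KO lay below stimulated WT in each group. The gap was widest in the shallowest group and narrowest in the group next to the deepest, at 44.9% against 43.5%. The deepest IFT20-KO group, with a median of 14978.5 UMIs, lay below the stimulated WT group of a like median of 14067 UMIs. The former ranged from 11918 to 56227 UMIs and the latter from 12169 to 16289 UMIs, so these groups were not matched in depth. *Psmb10* with *Psmb7* did not follow the order of depth, with a share that was lower in the shallowest group (47.2% in stimulated WT) than in the second (56.8%). Nor was the summed share highest in the shallowest stimulated cells. Cells with 4000 to 8000 UMIs stood at 64.9% in WT and 50.6% in IFT20-KO, above the shallowest groups. *Psmb8* with *Psmb5* did likewise, at 69.7% in that band against 63.1% in the shallowest group in WT, and 57.6% against 53.0% in IFT20-KO. *Psmb9* with *Psmb6* did not.

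**Figure D4:**
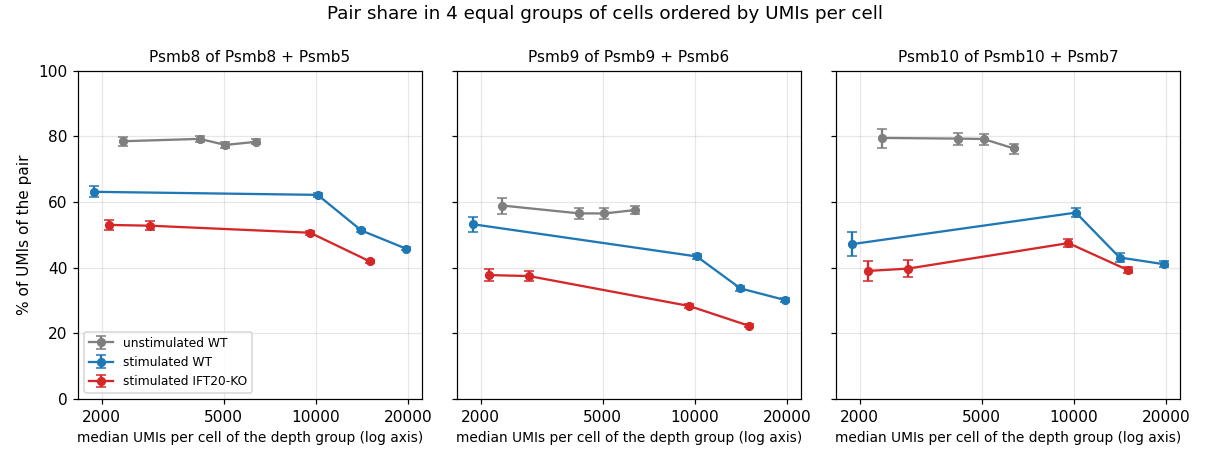
Share of the immunoproteasome gene in each catalytic pair, as a percentage, in 4 equal groups of the cells of each library ordered by UMIs per cell, against the median UMIs per cell of the group on a log axis, with 95% exact binomial intervals. The unstimulated WT line is nearly level, and both stimulated lines lie below it and are lowest or near their lowest in the deepest group.

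Cells that carried other marks of their state were compared within a library. Cells with UMIs of at least 3 of 11 interferon-stimulated genes, which are found more readily in deeper cells, numbered 856 in unstimulated WT (a median of 5186 UMIs against 4551 in the rest), and there *Psmb8* was at 757 CPM against 626 CPM in the other cells, *Psmb9* at 271 against 210.2 CPM and *Psmb10* at 214 against 160.5 CPM. Of the constitutive genes, *Psmb5* (186 against 177 CPM) and *Psmb6* (172 against 162 CPM) differed by less than their counting error, while *Psmb7* was at 53.8 against 45.8 CPM, a ratio of 0.23 (0.039 to 0.42) that is near the 0.27 of *Psmb8*. In stimulated WT, 291 such cells had an immunoproteasome share of 59.8% (58.9 to 60.8) against 45.1% (44.9 to 45.4), and in IFT20-KO 89 such cells had 49.7% (47.5 to 51.8) against 39.2% (39.0 to 39.5), with medians of 13606 against 12126.5 UMIs in WT and 12758 against 4799 UMIs in IFT20-KO. The share was thus higher in cells with the interferon signature in each library, and the gap was smallest in unstimulated cells, at 75.1% (74.1 to 76.02) against 72.1% (71.7 to 72.6).

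Cells with an *Il7r* UMI and no *Il2ra* UMI, a transcript pattern of naïve cells, were also set apart after stimulation, where they differed in depth from the cells they were compared with. In stimulated WT the 94 such cells stood at 59.3% (56.4 to 62.2) against 45.5% (45.2 to 45.7) in cells with an *Il2ra* UMI, and in IFT20-KO the 142 such cells stood at 55.9% (52.8 to 59.1) against 38.9% (38.6 to 39.2). The former had medians of 4324.5 (WT) and 2774.5 (IFT20-KO) UMIs and the latter of 13476.5 and 8874 UMIs. In stimulated WT, cells with 4000 to 8000 UMIs stood at 64.9% whatever their transcripts, above the cells of this pattern, so the WT values do not set the pattern apart from depth. In IFT20-KO, the second of the 4 equal groups by depth, with a median of 2869 UMIs, stood at 46.1%, and cells with 4000 to 8000 UMIs at 50.6%. The 142 IFT20-KO cells ranged from 1536 to 19771 UMIs, so neither matched them in depth. Cells with a UMI of *Foxp3*, the regulatory T cell factor, numbered 343 in unstimulated WT and stood at 72.7% (70.9 to 74.4) against 72.6% (72.2 to 73.0) in the rest, a difference within counting error. After stimulation the 176 WT cells with *Foxp3* stood at 59.7% (58.4 to 61.1) against 45.5% (45.3 to 45.8), and the 318 IFT20-KO cells at 48.0% (46.5 to 49.4) against 39.1% (38.9 to 39.4), and these cells were the deeper ones, with medians of 13130.5 against 12148 UMIs in WT and 8811 against 4792.5 UMIs in IFT20-KO. Cells with a UMI of the proliferation gene *Mki67* were less apart, at 48.8% (47.9 to 49.7) against 45.7% (45.5 to 45.9) in stimulated WT, with medians of 16166 and 12060 UMIs.

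Other genes of proteasome function, listed apart from the symbol rule, were compared in the same way. Of 7 partners in the tables, 4 were at least 1.5-fold higher in CPM upon stimulation, where 28.6% of all genes were, and 1 (*Akirin2*, above 0 in UMIs per cell) was lower, where 34.3% of all genes were. *Pomp*, the maturation factor that every new 20S core needs, was at 189, 546 and 471 CPM, a ratio of 1.53 (1.49 to 1.56), and the proteasome-bound deubiquitinases *Uchl5* and *Usp14* had ratios of 1.37 and 1.09. *Ecpas*, a proteasome scaffold listed as *AI314180*, had a ratio of 0.94. Of the remaining partners, the ubiquitin receptor *Adrm1* was level at -0.03 (-0.088 to 0.029), the small 19S subunit *Sem1* had a ratio of 0.31, and *Akirin2*, which helps import proteasomes into the nucleus, had -0.91 (-1.08 to -0.75) at low levels of 13.3, 7.06 and 6.35 CPM. In IFT20-KO only *Ecpas* passed 1.2-fold, where 35.9% of all genes were higher and 7.75% lower by that much, with a ratio of 0.38 in CPM that would be below 0 in UMIs per cell.

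Of 12 regulators and shuttle factors, 3 were at least 1.5-fold higher in CPM upon stimulation and 3 lower, of which *Ubqln2* and *Zfand2a* would be above 0 in UMIs per cell. Of all genes, 28.6% were higher and 34.3% lower by that size, so these counts do not set the list apart. The higher ones were *Txnl1*, a thioredoxin-like protein bound to the 19S particle, with 78.2, 321 and 303 CPM and a ratio of 2.04 (1.98 to 2.09), the shuttle factor *Rad23b* (1.196) and the segregase *Vcp* (0.95). The lower ones were *Nfe2l2*, the antioxidant response factor, with 76.1, 21.2 and 22.1 CPM and a ratio of -1.84 (-1.92 to -1.77), the shuttle *Ubqln2* (-0.78) and the stress-induced *Zfand2a* (-0.88). *Nfe2l1*, the transcription factor that restores proteasome genes when the proteasome is inhibited, had a ratio of 0.23 (0.09 to 0.36), and its activating protease *Ddi2* and deglycosylase *Ngly1* had 0.51 and -0.44. The shuttles *Ubqln1* and *Ubqln4* and the proteasome-binding *Zfand5* had ratios between 0.42 and 0.49. In IFT20-KO, *Nfe2l1* (0.39) and *Ubqln2* (0.35) were at least 1.2-fold higher in CPM, though not in UMIs per cell, where 35.9% of all genes were higher in CPM, and none was lower by that much in CPM, where 7.75% were.

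The genes that interferon-gamma induces along with the immunoproteasome for MHC class I antigen processing were also listed, and of these 7, none was at least 1.5-fold higher in CPM upon stimulation and 4 were lower, all of which would be above 0 in UMIs per cell. Of all genes, 28.6% were higher and 34.3% lower by that size in CPM. The 4 were *Nlrc5*, the activator of class I genes (27.4, 13.1 and 10.8 CPM), *Irf1*, the transcription factor that drives immunoproteasome genes (191, 117 and 69.7 CPM), *B2m*, the class I light chain (1634, 863 and 804 CPM), and *Tap2*, a subunit of the peptide transporter (223, 128 and 117 CPM). Their stimulation ratios were -1.07, -0.71, -0.92 and -0.81. The others were the loading factor *Tapbp* (-0.42), *Tap1* (0.017) and the peptide trimmer *Erap1* (0.35).

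Between the genotypes, 3 of the 7 were at least 1.2-fold lower in IFT20-KO, where 7.75% of all genes were, and none was higher by that much, where 35.9% were. *Irf1* had a ratio of -0.74 (-0.78 to -0.70), *Tap1* of -0.46 (-0.49 to -0.42) and *Nlrc5* of -0.27 (-0.38 to -0.16). *Tapbp* (-0.18), *Tap2* (-0.13), *B2m* (-0.10) and *Erap1* (0.25) did not reach that size. Beside the immunoproteasome genes, the summed level of 11 interferon-stimulated genes was 334, 165 and 128 CPM, of which *Bst2* made up 105, 125 and 106 CPM. The median ratio of the 11 was -3.09 upon stimulation, with 9 at least 1.5-fold lower in CPM, where 34.3% of all genes were. That of the 9 measured in the genotype comparison was -0.94, with 7 at least 1.2-fold lower, where 7.75% of all genes were. Of these 9, *Mx1* alone was higher in IFT20-KO, with a ratio of 1.24 (0.25 to 2.32) from 13 UMIs in stimulated WT and 28 in IFT20-KO. The part of the interferon-stimulated genes in the levels of *Psmb8*, *Psmb9* and *Psmb10* was not tested. Of other cells, *Cd8b1*, a CD8 T cell gene, was at 28.6, 9.04 and 11.2 CPM and the myeloid list at 80.3, 76.4 and 80.4 CPM, nearly all of it *Cst3*, with *Lyz2* at 1 UMI in unstimulated WT and 0 in both stimulated libraries, and their part was not tested either.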

How the data were processed

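Single-cell RNA libraries of CD4+ T cells, 1 per group, were compared. The authors aligned the reads to mm10, called barcodes and deposited raw UMI counts per gene and barcode, without normalization; the file headers give Cell Ranger 3.1.0. The labels name a 5′ kit and the study's methods a 3′ kit, and how reads shared by overlapping genes were assigned is not given in the sources used here. Later steps are new. The cell filter followed the study's methods (over 200 genes detected, mitochondrial share below 15%), no doublets were removed, and UMIs were summed per library and scaled to CPM. Genes with at least 10 UMIs in a comparison entered it. For counts over all genes, a library at 0 UMIs was set to 3 counts. Intervals are exact Poisson (CPM), exact binomial (ratios and shares) or Wald intervals of the log odds (pairs), at the 95% level, for counting error only. A gene was called at 1.5-fold (stimulation) or 1.2-fold (IFT20-KO). The calculation of the ratio intervals was tested on simulated Poisson counts. These held no spread between cells or mice, so the test speaks only of the calculation.

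The members, gene lists, gates and sizes were chosen with earlier results of these data known. Named were the catalytic, activator, inhibitor and assembly genes, the highest and lowest ratio of each other role group at 50 CPM or more, members past the size against their group, and the listed partner, regulator, antigen processing and marker genes. *Paaf1*, on the partner list, was not analysed here. Some other listed genes are not reported here, and the counts over their lists leave them out. Alternatives changed the scaling, the cell filter, the depth and the summary over members. Gene positions are from GENCODE M21 (GRCm38). Of the members, 3 share exon bases with a counted gene on the same strand and 11 with one on the other strand. Python 3.11.15, numpy 2.4.6, scipy 1.17.1, pandas 2.3.3 and matplotlib 3.10.9 were used.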

Additional observations from a re-analysis of the deposited data

How the results depend on the processing

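With 1 library per group no replicate could be left out. No paired analysis was possible because each group has 1 library. The direction of the 4 summary values held under every alternative run. The median of the members upon stimulation (1.08) was 1.25 with median-ratio scaling, 2.43 in UMIs per cell, 0.96 with per-cell fractions, 0.98 scaled without ribosomal and mitochondrial genes, 0.90 with cells thinned to 1400 UMIs and 0.96 as a mean over members, with the median of all genes at 0.080, 1.26, -0.0099, -0.19 and 0.10 in the first 5. Thinning left out 801, 421 and 0 cells. The median between the genotypes (-0.12) was -0.29 with median-ratio scaling, -0.75 in UMIs per cell, -0.089 in cells with at least 3000 UMIs, and -0.035, -0.022 and -0.051 in the bands of 4000 to 8000, 8000 to 12000 and 12000 to 16000 UMIs, which were chosen after the data had been seen. The immunoproteasome difference upon stimulation (-1.72) was -1.55 with per-cell fractions, -1.53 with thinned cells and -1.64 from summed UMIs. Between the genotypes (-0.38) it was -0.40 in cells with at least 3000 UMIs and -0.92, -0.79 and -0.47 in the bands. The cause of these shifts was not tested. The remaining alternatives, all barcodes, a stricter cell filter, members with at least 200 UMIs and 20S and 19S subunits alone, moved none of the values by more than its counting interval. Single members changed sign mostly in the bands, where 16, 15 and 6 did so between the genotypes, and in UMIs per cell, where the 3 immunoproteasome genes did so upon stimulation. Depth limits *Psme4*, *Psmg3*, *Psme2b* and *Psmc3ip*, with 201 to 373 UMIs in unstimulated WT.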
